A study of Mus musculus with 3 samples.

Results

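The Bcl2 family and the regulators that act with it decide whether a cell undergoes mitochondrial apoptosis. The group described here was named by gene symbol as Bcl2, Bcl2l1, Mcl1, Bax, Bak1, Bcl2l11, Bid, Apaf1 and Birc3, and its probes were taken from the symbols of the platform annotation. Of these 9 genes, 8 had a named probe among 16390 genes with one, and they were read by 9 of 23473 probes, since Bcl2 had 2. No probe carried the symbol Bax, which is not analysed here.

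All 3 populations were taken from IL-10 Venus reporter mice, whose Il10-expressing cells carry the fluorescent protein Venus. They were Venus+ CD138hi cells of the bone marrow, Venus+ CD138hi cells of the spleen and B220+ cells of the spleen, each freshly isolated by flow cytometry and hybridized to 1 single-colour oligonucleotide array. Plasma cells carry CD138 (syndecan-1) at high levels on their surface, and B220 is the form of CD45 found on B cells. The Venus gate selects Il10-expressing cells, so the plasma cell populations stand for that fraction alone, and the bone marrow cells are set against B220+ cells of another organ, the spleen. The sources used here do not give the age, sex or number of the mice.

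Detected probes made up 67.6% of the array in bone marrow Venus+, 73.4% in spleen Venus+ and 72.1% in B220+ cells. The labels were set against marker genes. Sdc1, the gene of CD138, had normalized signals of 220 in bone marrow Venus+ and 128 in spleen Venus+ cells, against 2.49 in B220+ cells, and Ms4a1, the gene of the B cell antigen CD20, had 334 in bone marrow Venus+ and 2619 in spleen Venus+ cells, against 10149 in B220+ cells. Prdm1, the gene of the plasma cell factor Blimp1, had 34.4 in bone marrow Venus+ and 81.5 in spleen Venus+ cells, against 8.72 in B220+ cells. The B cell genes Pax5 and Cr2 were not detected in bone marrow Venus+ cells, and Cr2 was not detected in spleen Venus+ cells. The 9 measured mature B cell markers summed to 4247 in bone marrow Venus+ (7 detected) and 10275 in spleen Venus+ cells (8 detected), against 28996 in B220+ cells (9 detected). Pax5 had 21.3 in spleen Venus+ cells, against 164 in B220+ cells, while Fcer2a was higher in bone marrow (166) than in spleen Venus+ cells (62.4). The part of B cell RNA in the ratios of bone marrow over spleen Venus+ cells was not tested. Genes of other cell types were present too. The 9 measured neutrophil markers summed to 547 in bone marrow Venus+ (8 detected) and 129 in spleen Venus+ cells (4 detected), against 5060 in B220+ cells (9 detected). S100a8, S100a9, Ngp, Camp, Ltf and Lcn2 were lower in both Venus+ populations, while Ly6g ran the other way, with 334 in bone marrow Venus+ and 99.6 in spleen Venus+ cells, against 38.9 in B220+ cells, and Mpo was higher in bone marrow Venus+ cells (29.8, against 2.22 in B220+ cells). The 9 measured T and NK cell markers summed to 1165 (7 detected) in bone marrow Venus+ and 783 (9 detected) in spleen Venus+ cells, against 44.3 (6 detected) in B220+ cells, with Cd3e and Cd3g not detected in B220+ cells and Cd247 alone giving 1038 in bone marrow Venus+ and 637 in spleen Venus+ cells, against 15.7 in B220+ cells. Zap70 and Nkg7 were not detected in bone marrow Venus+ cells, and Cd8a in spleen Venus+ cells was slightly below B220+ cells (4.39, against 4.94). The 9 monocyte and macrophage markers summed to 288 in bone marrow Venus+ and 161 in spleen Venus+ cells, against 90.4 in B220+ cells. Cd68 alone gave 241 in bone marrow Venus+ and 111 in spleen Venus+ cells, against 33.0 in B220+ cells, while C1qa, C1qb and C1qc were lower in both Venus+ populations. The 8 basophil, mast cell and eosinophil markers summed to 265 in bone marrow Venus+ and 124 in spleen Venus+ cells, against 25.6 in B220+ cells. Mcpt8 alone gave 143 in bone marrow Venus+ and 43.0 in spleen Venus+ cells, against 17.5 in B220+ cells. Gata2 and Kit were detected only in the Venus+ populations, Ms4a2 only in B220+ cells, and Fcer1a and Epx on no array. The 5 erythroid markers summed to 42.3 in bone marrow Venus+ and 40.0 in spleen Venus+ cells, against 340 in B220+ cells. Tfrc alone gave 208 in B220+ cells, against 9.88 in bone marrow Venus+ and 22.4 in spleen Venus+ cells. Klf1 differed little (6.35, 5.38 and 5.22 in bone marrow Venus+, spleen Venus+ and B220+ cells). The part of these cell types in the results was not tested. In sorted pools of this kind, fewer cells of a type and less RNA per cell cannot be told apart.

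Each population has 1 array, so there is no replicate, no difference was tested and no p-value is given. Array and population cannot be told apart. A normalized signal has the blank spots' level subtracted and the median detected probe set to 25, and it is compared with the same probe on another array, never with another probe. Beside each log2 ratio stands a spot error, made from the spread of control spots within the arrays, and the spread between sorts or mice is not in it. Genes are called higher or lower when they were detected on both arrays and differed at least 2-fold.

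As background, mitochondrial apoptosis is held in check by the anti-apoptotic proteins Bcl2, Bcl-xL (Bcl2l1) and Mcl1, which bind and restrain the pore-forming effectors Bax and Bak1. The BH3-only proteins Bim (Bcl2l11) and Bid oppose them, and once cytochrome c leaves the mitochondrion Apaf1 assembles it with caspase-9 into the apoptosome. In mice, plasma cell survival depends on Mcl1, which signals through the receptor BCMA help to sustain.

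**Figure D1:**
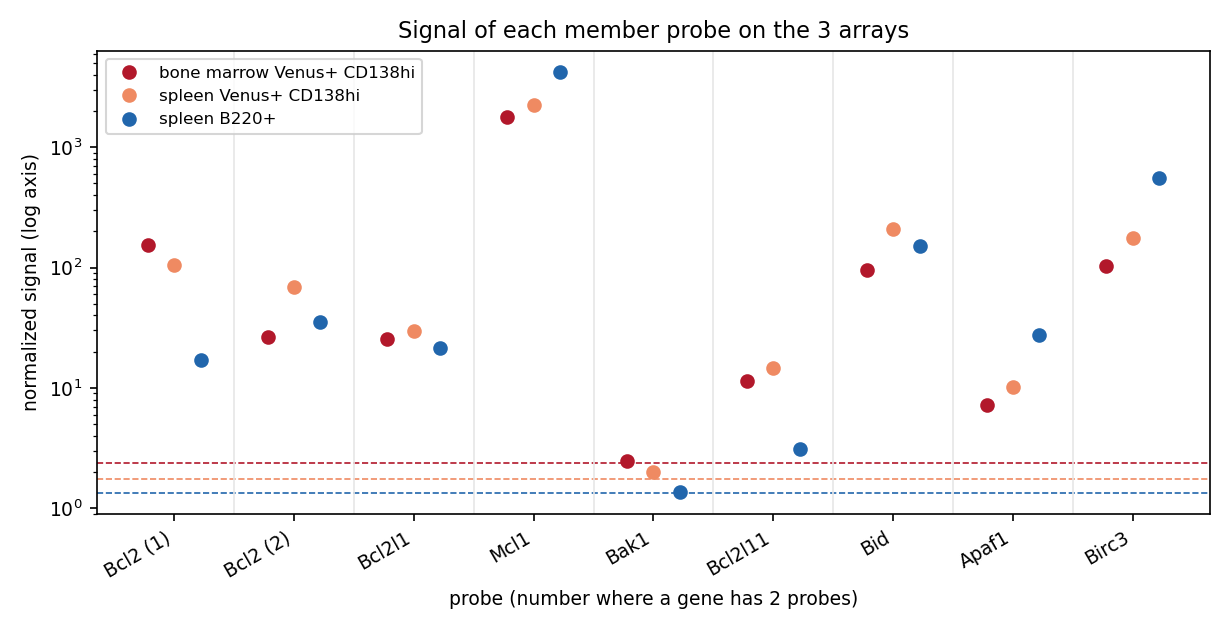
Normalized signal on a log axis (vertical) of the 9 member probes (horizontal) on the bone marrow Venus+ CD138hi, spleen Venus+ CD138hi and spleen B220+ arrays, 1 point an array, with dashed lines at the lowest detected signal of each array. The first Bcl2 probe and Bcl2l11 lie higher in both Venus+ populations than in B220+ cells, Mcl1, Apaf1 and Birc3 lie lower in both, and Bak1 sits at the detection limits.

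In spleen Venus+ against B220+ cells, 2 of the 8 measured members were at least 2-fold higher (Bcl2 and Bcl2l11), beside 15.7% of all genes, and 2 were at least 2-fold lower (Apaf1 and Birc3), beside 16.5% of all genes. In bone marrow Venus+ against spleen B220+ cells, the same 2 members were higher, beside 22.4% of all genes, and 3 were lower (Mcl1, Apaf1 and Birc3), beside 30.7%. These shares of 2 or 3 in 8 genes lie near those of all genes and are no result about the members as a group. The median log2 ratio of the members was 0.48 in the spleen comparison, against -0.02 over all genes, and -0.21 in the bone marrow comparison, against -0.24. All 8 members were detected on all 3 arrays, so none was lost to the filter on dim signals. Both comparisons use the same B220+ array, and a high or low value on it enters both.

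**Figure D2:**
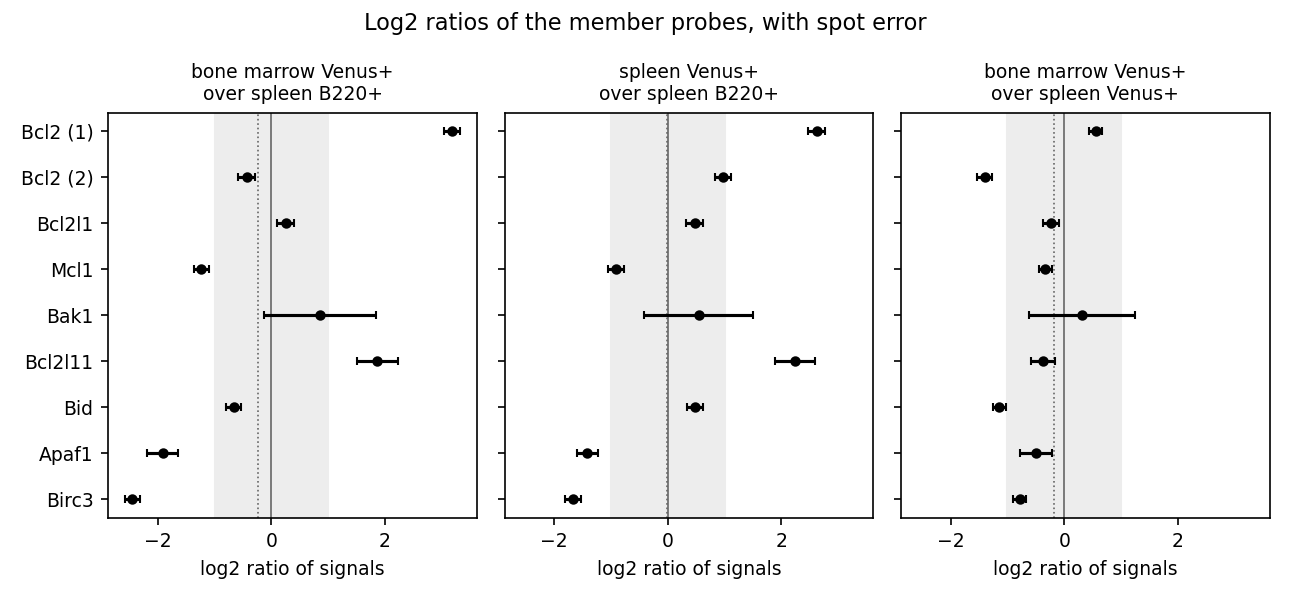
Log2 ratios of normalized signals (horizontal) of the 9 member probes (vertical) for bone marrow Venus+ over B220+, spleen Venus+ over B220+ and bone marrow over spleen Venus+ cells, with bars of 1 spot error, grey shading for less than 2-fold and a dotted line at the median of all genes. The 2 Bcl2 probes part by 3.61 in the bone marrow comparison, and the bars of Bak1 reach from below 0 to above 1 in all 3 panels.

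The promoters of the 4 members that were at least 2-fold from B220+ cells in both Venus+ populations are printed to show what the upstream sequence of these genes holds, from RefSeq on build GRCm38.p6. Each runs 5′ to 3′ on the gene's strand from 250 bases before to 50 after the start site, and capitals mark motif matches. Bcl2l11 has another annotated start, at which only GC boxes matched, and that window is not printed.
Bcl2 (chr1:106714241-106714540, minus strand): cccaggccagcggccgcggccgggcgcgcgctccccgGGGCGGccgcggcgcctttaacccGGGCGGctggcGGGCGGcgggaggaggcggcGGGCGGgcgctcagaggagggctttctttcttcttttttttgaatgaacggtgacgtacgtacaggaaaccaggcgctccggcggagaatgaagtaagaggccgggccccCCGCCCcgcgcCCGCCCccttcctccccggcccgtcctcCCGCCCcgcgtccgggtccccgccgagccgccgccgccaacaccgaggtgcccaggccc
Bcl2l11 (chr2:128125788-128126087, plus strand): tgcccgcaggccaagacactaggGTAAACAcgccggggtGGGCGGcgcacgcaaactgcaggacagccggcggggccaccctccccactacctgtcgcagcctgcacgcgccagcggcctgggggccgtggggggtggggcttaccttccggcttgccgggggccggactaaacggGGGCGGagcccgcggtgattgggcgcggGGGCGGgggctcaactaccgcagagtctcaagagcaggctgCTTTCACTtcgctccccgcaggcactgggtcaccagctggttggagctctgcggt
Apaf1 (chr10:91082694-91082993, minus strand): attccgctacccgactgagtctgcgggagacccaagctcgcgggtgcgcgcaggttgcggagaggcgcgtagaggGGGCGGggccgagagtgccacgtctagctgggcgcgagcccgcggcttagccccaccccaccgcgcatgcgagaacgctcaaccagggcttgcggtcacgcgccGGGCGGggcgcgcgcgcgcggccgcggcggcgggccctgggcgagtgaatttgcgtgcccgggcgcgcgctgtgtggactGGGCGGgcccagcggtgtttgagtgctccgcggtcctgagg
Birc3 (chr9:7873121-7873420, minus strand): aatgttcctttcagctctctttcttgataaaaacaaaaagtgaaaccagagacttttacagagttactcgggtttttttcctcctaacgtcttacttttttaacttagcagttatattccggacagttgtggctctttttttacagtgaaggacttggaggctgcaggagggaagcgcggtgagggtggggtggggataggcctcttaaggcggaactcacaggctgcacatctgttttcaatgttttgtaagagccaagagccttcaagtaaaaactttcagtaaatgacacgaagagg

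These windows were searched on both strands for an NF-kB motif (GGG, any 2 bases, then TTTCC) and for the letters GTAAACA (FOXO), TTTNNCGC (E2F), AGTGAAAG (Blimp1), TGACGTCA (cyclic AMP response element) and GGGCGG (GC box). The Bcl2l11 window held 1 FOXO match, starting at position -227 from the start site, and 1 Blimp1 match at -5, which reads on the opposite strand. Among all 32851 promoters of this length, 3.65% held the FOXO letters and 1.32% the Blimp1 letters. GC boxes matched 7 times in the Bcl2 window and 3 times each in those of Bcl2l11 and Apaf1, against 35.7% of all promoters with at least 1 match. No motif searched matched in the Birc3 window, and no matches of different motifs overlapped in any of these windows. A match of letters describes the sequence and is not evidence of binding.

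Among the anti-apoptotic members, Bcl2 was read by 2 probes that differed. The probe with the higher mean log2 signal over the 3 arrays, M400004671, had a normalized signal of 154 in bone marrow Venus+ and 105 in spleen Venus+ cells, against 17.0 in B220+ cells. On this probe Bcl2 was 9.07-fold higher in bone marrow Venus+ (log2 ratio 3.18 ± 0.14) and 6.17-fold higher in spleen Venus+ than in B220+ cells (2.63 ± 0.15). The bone marrow ratio exceeded that of 96.8% of all genes and the spleen ratio that of 97.1%. The other Bcl2 probe, M200009700, had signals of 26.3 in bone marrow Venus+ and 69.3 in spleen Venus+ cells, against 35.5 in B220+ cells. It stood 1.35-fold lower in bone marrow Venus+ (-0.43 ± 0.15) and 1.95-fold higher in spleen Venus+ than in B220+ cells (0.97 ± 0.14), both under 2-fold. These ratios exceeded those of 45.1% of all genes in bone marrow Venus+ and 83.6% in spleen Venus+ cells. The order of the populations therefore differs between the probes, with bone marrow Venus+ cells highest on one and lowest on the other.

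The gap between the Bcl2 probes was 3.61 on the log2 scale for bone marrow Venus+ over B220+ cells. Among 104 genes with exactly 2 probes detected on both of those arrays, the median gap was 1.08, and 9 had a larger gap than Bcl2. For spleen Venus+ over B220+ cells the gap was 1.66, with 25 of 128 such genes above it. The sources used here do not say which transcripts of Bcl2 each probe reads, so each fold given for Bcl2 holds for its probe alone. In spleen Venus+ cells the first probe was under 2-fold with normexp on the local background (0.21). With local background subtraction the second probe became the brighter and stood for Bcl2, at -0.31 in bone marrow Venus+ and 0.97 in spleen Venus+ cells. The first probe had a spot median of 205 and a local background of 98.2 in bone marrow Venus+ cells. These were 175 and 148 in spleen Venus+ and 76.1 and 61.6 in B220+ cells. Its ratio under that setting was not computed. The summed T and NK cell markers, mostly Cd247, were also higher in both Venus+ populations, and their part in the higher Bcl2 was not tested. With the mean of both probes, Bcl2 stood at 1.37 in bone marrow Venus+ and 1.80 in spleen Venus+ cells over B220+ cells.

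Mcl1, whose product is short-lived and binds Bim and Bak, had signals of 1795 in bone marrow Venus+ and 2260 in spleen Venus+ cells, against 4239 in B220+ cells. It was 2.36-fold lower in bone marrow Venus+ (log2 ratio -1.24 ± 0.13) and 1.88-fold lower in spleen Venus+ than in B220+ cells (-0.91 ± 0.14). Both differences lay near the 2-fold threshold. Of all genes, 25.2% had a smaller ratio than Mcl1 in bone marrow Venus+ and 18.6% in spleen Venus+ cells. In bone marrow Venus+ cells Mcl1 was under 2-fold after scaling to the probes shared by all 3 arrays (-0.95) and with local background subtraction (-0.91). In spleen Venus+ cells it passed 2-fold with quantile normalization (-1.23) and with normexp on the spot medians (-1.21). The Mcl1 spot was bright, at 763, 1300.5 and 3155 times the lowest detected signal in bone marrow Venus+, spleen Venus+ and B220+ cells, and the Mcl1 ratio to B220+ cells was below 0 in both Venus+ populations under each setting run.

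Bcl2l1, the gene of Bcl-xL, differed least among the anti-apoptotic members. Its signals were 25.5 in bone marrow Venus+ and 29.8 in spleen Venus+ cells, against 21.4 in B220+ cells. The spleen Venus+ value exceeded that of B220+ cells by 0.48 ± 0.15 on the log2 scale. The bone marrow Venus+ value did so by 0.25 ± 0.16, which is within 2 spot errors.

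Of the effectors, Bak1, which forms pores in the outer mitochondrial membrane, was read just above the detection limit. Its signals were 2.48 in bone marrow Venus+ and 2.0 in spleen Venus+ cells, against 1.37 in B220+ cells, which is 1.05, 1.15 and 1.02 times the lowest detected signal of each array. The log2 ratios to B220+ cells were 0.86 ± 0.99 in bone marrow Venus+ and 0.54 ± 0.95 in spleen Venus+ cells and lay within 1 spot error of 0, so no order of the 3 populations can be read for this gene. Under quantile normalization the spleen value was -0.08, and with a detection limit at 3 SD of the blank spots Bak1 gave no ratio.

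The BH3-only members went separate ways. Bcl2l11, the gene of Bim, had signals of 11.4 in bone marrow Venus+ and 14.7 in spleen Venus+ cells, against 3.11 in B220+ cells. It was 3.65-fold higher in bone marrow Venus+ (log2 ratio 1.87 ± 0.37) and 4.74-fold higher in spleen Venus+ than in B220+ cells (2.24 ± 0.35). In spleen Venus+ cells its ratio exceeded that of 96.0% of all genes. The printed window of Bcl2l11 holds the FOXO and Blimp1 letters, and the window of its other annotated start holds neither. A link between these letters and the signals was not tested. The B220+ value was dim, at 2.32 times the lowest detected signal. With a normexp background fitted to the spot medians, which shrinks the ratios of dim probes, Bcl2l11 stood at 0.47 in bone marrow and 0.52 in spleen Venus+ cells, under 2-fold, while Bcl2 stayed past it (1.67 in bone marrow and 1.37 in spleen Venus+ cells). With local background subtraction Bcl2l11 stood at -0.56 in bone marrow and 0.93 in spleen Venus+ cells, and with normexp on the local background at 0.00 in bone marrow and 0.03 in spleen Venus+ cells.

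Bid, which is cleaved by caspase-8 and links death receptors to the mitochondrion, had signals of 94.8 in bone marrow Venus+ and 209 in spleen Venus+ cells, against 151 in B220+ cells. The B220+ value thus lay between those of the Venus+ populations. Bid stood at -0.67 ± 0.13 in bone marrow Venus+ and 0.47 ± 0.14 in spleen Venus+ over B220+ cells, each beyond 2 spot errors and under 2-fold.

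Downstream of the mitochondrion, Apaf1, the scaffold of the apoptosome, had signals of 7.24 in bone marrow Venus+ and 10.2 in spleen Venus+ cells, against 27.3 in B220+ cells. It was 3.78-fold lower in bone marrow Venus+ (log2 ratio -1.92 ± 0.27) and 2.68-fold lower in spleen Venus+ than in B220+ cells (-1.42 ± 0.19). A smaller ratio was found for 13.8% of all genes in bone marrow Venus+ and 8.29% in spleen Venus+ cells. Apaf1 was under 2-fold with normexp on the spot medians (-0.45 in bone marrow and -0.42 in spleen Venus+ cells) and on the local background (-0.11 in bone marrow and -0.17 in spleen Venus+ cells), and local background subtraction left it at -1.18 in bone marrow and -0.91 in spleen Venus+ cells.

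Birc3, the gene of cIAP2, a ubiquitin ligase of TNF receptor signalling, had signals of 102 in bone marrow Venus+ and 176 in spleen Venus+ cells, against 558 in B220+ cells. It was 5.45-fold lower in bone marrow Venus+ (log2 ratio -2.45 ± 0.13) and 3.17-fold lower in spleen Venus+ than in B220+ cells (-1.67 ± 0.14). Of all genes, 7.79% had a smaller ratio in bone marrow Venus+ and 5.35% in spleen Venus+ cells. RefSeq lists Birc2, the gene of the close relative cIAP1, as an alias of Birc3 and the reverse, and the probe sequence was not used here, so which of the pair this probe reads rests on the platform annotation. The summed neutrophil markers, mostly S100a8 and S100a9 in B220+ cells, were also lower in both Venus+ populations, though Ly6g was higher, and the part of these cells in the lower Birc3 and Mcl1 was not tested.

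Between the Venus+ populations, no member was at least 2-fold higher in bone marrow than in spleen cells, beside 4.33% of all genes, and 1 was at least 2-fold lower, beside 15.2% of all genes. After scaling to the probes shared by all arrays, 1250 of 11352 genes were higher and 916 lower, against 492 and 1720 as reported, so the balance turned. That member was Bid, 2.20-fold lower in bone marrow Venus+ cells (log2 ratio -1.14 ± 0.11), with the signals of 94.8 and 209 given above. Relative to the median of all genes, which was -0.17, Bid stood at -0.97, and it was under 2-fold after scaling to the probes shared by all 3 arrays (-0.81) and with quantile normalization (-0.88). Birc3 (-0.78 ± 0.11) and Mcl1 (-0.33 ± 0.11) were lower in bone marrow Venus+ cells by more than 2 spot errors, and the first Bcl2 probe was higher (0.56 ± 0.11). With the scaling to probes detected on all 3 arrays, Mcl1 had a ratio near 0 and Birc3 stood at -0.45. The second Bcl2 probe was 2.64-fold lower in bone marrow than in spleen Venus+ cells (-1.40 ± 0.13). Bcl2l1, Bak1, Bcl2l11 and Apaf1 differed by less than 2 spot errors, and Bcl2l1 (-0.23 ± 0.14) turned positive under that scaling (0.10) and under quantile normalization (0.06).

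For each member, the genes with the nearest pair of log2 ratios to B220+ cells were sought among 10768 other genes detected on all 3 arrays. The nearest to Bcl2 (first probe) were Bcan and Pdzrn4, at distances of 0.02 and 0.04 on the log2 scale, and those nearest to Bcl2l11 were Olfr1387 and Aldh18a1, at 0.05 and 0.11. Apaf1 lay nearest to Rnf139 and Txnip, and Birc3 nearest to Pnrc2 and Cse1l. Mcl1 lay nearest to 1700123O20Rik and Mrpl30, Bid to Neurl1a and Rgs3, Bcl2l1 to St8sia5 and Slc25a1, and Bak1 to Tesc and D630029K05Rik. With 3 arrays a pattern is only 2 ratios, and many genes share it. Within 0.25 on both ratios lay 24 genes for Bcl2l11, 48 for Bcl2, 125 for Bid, 139 for Birc3, 220 for Apaf1, 391 for Mcl1, 527 for Bcl2l1 and 572 for Bak1.

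A further 97 apoptosis genes were listed by role, of which 82 had a named probe. In spleen, 76 of them were detected in Venus+ and in B220+ cells. Of these, 12 were higher by at least 2-fold and 7 lower in Venus+ cells, beside 15.7% and 16.5% of all genes, with a median log2 ratio of -0.15. Of 71 detected in bone marrow Venus+ and B220+ cells, 11 were higher and 22 lower, beside 22.4% and 30.7% of all genes, with a median of -0.55 against -0.24 over all genes. Between the Venus+ populations, 3 of 74 were higher and 10 lower in bone marrow cells, beside 4.33% and 15.2%, with a median of -0.38 against -0.17. Many of these calls depend on the processing. Of the 33 called genes in bone marrow Venus+ over B220+ cells, 25 remained 2-fold the same way after scaling to the probes shared by all arrays, 24 with quantile normalization, 19 with normexp on the spot medians, 20 with local background subtraction and 8 with normexp on the local background. Of the 19 in spleen Venus+ over B220+ cells, 18, 14, 8, 11 and 4 remained under the same settings in that order, and of the 13 between the Venus+ populations 8, 7, 3, 8 and 3.

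**Figure D3:**
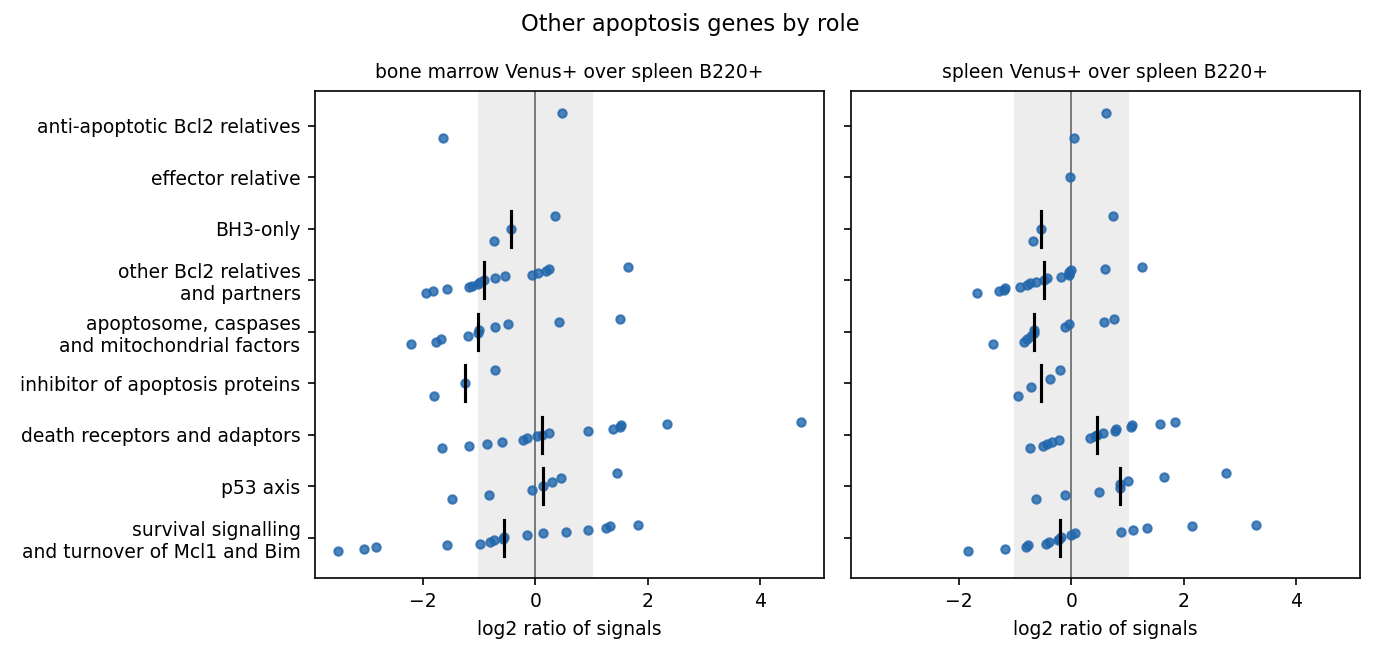
Log2 ratios of normalized signals (horizontal) of the other apoptosis genes detected on both arrays, by role (vertical), for bone marrow Venus+ and for spleen Venus+ over B220+ cells, 1 point a gene, with a bar at the median of roles with over 2 genes and grey shading for less than 2-fold. Most caspase and mitochondrial genes lie left of 0 in both panels, and death receptor genes lie on both sides.

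Of the remaining anti-apoptotic relatives, Bcl2l2, the gene of Bcl-w, had signals of 61.0 in bone marrow Venus+ and 67.2 in spleen Venus+ cells, against 43.7 in B220+ cells, under 2-fold. Bcl2a1c, of the A1 gene cluster, had signals of 86.2 in bone marrow Venus+ and 276 in spleen Venus+ cells, against 268 in B220+ cells. In bone marrow Venus+ cells it was lower than in B220+ cells (log2 ratio -1.63 ± 0.13) and lower than in spleen Venus+ cells (-1.68 ± 0.11), and between the spleen populations its ratio was 0.04 ± 0.14. Against B220+ cells the bone marrow value was 0.08 with normexp on the local background and 0.42 with local background subtraction, where the spleen values were 1.35 and 2.18. Copies of the A1 gene are near-identical, so which of them this probe reads is uncertain. Bcl2l10 was not detected on any of the 3 arrays.

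Of the pore-forming relatives, Bok was detected in spleen Venus+ and B220+ cells near the limit, with signals of 2.26 and 2.30 and a log2 ratio of -0.02 ± 0.71, and not in bone marrow Venus+ cells. Among the other BH3-only genes, Bad had signals of 95.0 in bone marrow Venus+ and 88.2 in spleen Venus+ cells, against 129 in B220+ cells, Bbc3 (PUMA) had 12.3 in bone marrow Venus+ and 16.2 in spleen Venus+ cells, against 9.66 in B220+ cells, and Pmaip1 (NOXA) had 38.9 in bone marrow Venus+ and 40.6 in spleen Venus+ cells, against 65.0 in B220+ cells. All 3 stayed under 2-fold in every comparison. Bik was not detected in B220+ cells and had signals of 9.66 in bone marrow Venus+ and 2.19 in spleen Venus+ cells, so it was at least 7.19-fold higher in the first of these. Bik was 2.14 ± 0.61 higher on the log2 scale in bone marrow than in spleen Venus+ cells. That Bik ratio was under 2-fold with normexp on the spot medians (0.28), normexp on the local background (0.15) and local background subtraction (0.76). Bmf was not detected on any array.

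Among other Bcl2 relatives and partners, 6 of 15 genes were lower in bone marrow Venus+ cells, set against B220+ cells, and 1 was higher, beside 30.7% and 22.4% of all genes. Of the lower genes, Tmbim6 (-0.83), Vdac1 (-0.73) and Vdac3 (-0.89) were under 2-fold after scaling to shared probes, and the others stayed past it. Under that scaling 24.1% of all genes were lower. In the spleen comparison 4 of 17 were lower and 1 higher, beside 16.5% and 15.7%. The lowest was Bnip3l, a mitophagy receptor (log2 ratios -1.94 ± 0.13 in bone marrow and -1.67 ± 0.14 in spleen Venus+ cells), and the highest was the co-chaperone gene Bag3 (1.65 ± 0.29 in bone marrow and 1.26 ± 0.29 in spleen Venus+ cells). The Bag3 value in bone marrow was 0.47 with normexp on the spot medians, 0.02 with normexp on the local background and -0.39 with local background subtraction, and in spleen 0.35, -0.05 and 0.49, and 0.88 with quantile normalization. Bcl2l15 was not detected in B220+ cells and was at least 7.68-fold higher in bone marrow Venus+ and at least 8.55-fold higher in spleen Venus+ cells. Bag2 was below detection in the bone marrow cells, at least 2.22-fold below B220+ cells. Vdac1, a channel of the outer mitochondrial membrane, was lower in bone marrow than in spleen Venus+ cells (-1.01 ± 0.12), and it was under 2-fold after scaling to shared probes (-0.68), with quantile normalization (-0.76) and with normexp on the spot medians (-0.77) or the local background (-0.78).

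Among apoptosome, caspase and mitochondrial genes, 6 of 10 were lower in bone marrow Venus+ cells, set against B220+ cells, and 1 was higher, beside 30.7% and 22.4% of all genes. Of the lower genes, Casp6 (-0.73), Diablo (-0.71) and Aifm1 (-0.91) were under 2-fold after scaling to shared probes, where 24.1% of all genes were lower. They were also under 2-fold with quantile normalization (-0.44, -0.39 and -0.65), with 24.2% of all genes lower. The other called lower genes stayed past 2-fold in both settings. In spleen Venus+ cells 1 of 10 was lower, beside 16.5%. Casp2 was lowest, with signals of 44.4 in bone marrow Venus+ and 78.1 in spleen Venus+ cells, against 205 in B220+ cells (log2 ratios -2.20 ± 0.14 in bone marrow and -1.39 ± 0.14 in spleen Venus+ cells). Endog, a mitochondrial nuclease gene, was highest in bone marrow Venus+ cells, with signals of 96.8 in bone marrow Venus+ and 57.6 in spleen Venus+ cells, against 34.3 in B220+ cells. Casp2 in spleen was under 2-fold with normexp on the local background (-0.83), and Endog in bone marrow with normexp on the spot medians (0.73) and on the local background (0.51). Casp9, the partner of Apaf1, was dim and under 2-fold (0.42 ± 0.44 in bone marrow and 0.58 ± 0.37 in spleen Venus+ cells). Dffa, an inhibitor of the apoptotic nuclease, was lower in bone marrow than in spleen Venus+ cells (-1.04 ± 0.56), within 2 spot errors, and under 2-fold in all 5 of those settings, from -0.76 to 0.08.

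Of the inhibitor of apoptosis genes beside Birc3, 2 of 3 were lower in bone marrow Venus+ cells, set against B220+ cells, beside 30.7% of all genes. They were Birc6 (log2 ratio -1.81 ± 0.15) and Birc5 (-1.25 ± 0.15). Birc5 was under 2-fold after scaling to shared probes (-0.96), with quantile normalization (-0.81) and with normexp on the spot medians (-0.79) or the local background (-0.29), and Birc6 with normexp on the local background (-0.60). In the spleen comparison 0 of 4 passed 2-fold. Birc6 was also lower in bone marrow than in spleen Venus+ cells (-1.09 ± 0.13), which was under 2-fold in all 5 settings, from -0.85 to -0.08. Birc2 had signals of 54.6 in bone marrow Venus+ and 77.8 in spleen Venus+ cells, against 89.5 in B220+ cells, so its ratios (-0.71 ± 0.14 in bone marrow and -0.20 ± 0.14 in spleen Venus+ cells) were smaller in size than those of Birc3. The probe read as Birc2 carries the symbol C330006D17Rik in the platform annotation and was placed at Birc2 by a RefSeq synonym. Its sequence was not used here, so which of the pair it reads rests on that synonym. Whether Birc2 and Birc3 differ from each other was not tested.

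Death receptor and adaptor genes went both ways, with 5 of 15 higher and 2 lower in bone marrow Venus+ cells, set against B220+ cells, beside 22.4% and 30.7% of all genes. In spleen Venus+ cells 4 were higher and 0 lower, beside 15.7% and 16.5%. Tnfrsf10b, the mouse receptor for the death ligand TRAIL, had signals of 41.5 in bone marrow Venus+ and 4.72 in spleen Venus+ cells, against 1.58 in B220+ cells. It was higher by 4.72 ± 0.63 in bone marrow Venus+ and by 1.58 ± 0.68 in spleen Venus+ over B220+ cells on the log2 scale, the B220+ spot lying near the detection limit. Tnfrsf10b was also higher in bone marrow than in spleen Venus+ cells (3.13 ± 0.29). With normexp on the local background its ratios to B220+ cells were 0.41 in bone marrow and -0.06 in spleen Venus+ cells, and in spleen it was also under 2-fold with normexp on the spot medians (0.31) and local background subtraction (0.08). Between the Venus+ populations Tnfrsf10b gave 0.81 with normexp on the spot medians and 0.47 on the local background. Tnfrsf1b, the gene of TNF receptor 2, had 197 in bone marrow Venus+ and 140 in spleen Venus+ cells, against 38.8 in B220+ cells, and was higher in both (2.34 ± 0.14 in bone marrow and 1.85 ± 0.14 in spleen Venus+ cells). Tnfrsf1b was under 2-fold with normexp on the local background (0.51 in bone marrow and 0.41 in spleen Venus+ cells) and, in spleen, with local background subtraction (0.62). Traf3, an adaptor that restrains the alternative NF-kB pathway, had the lowest ratio of these genes in bone marrow Venus+ over B220+ cells (-1.66 ± 0.14). It was under 2-fold with normexp on the local background (-0.85). Traf1 was lower in bone marrow than in spleen Venus+ cells (-1.03 ± 0.12), which was under 2-fold in all 5 settings, from -0.75 to -0.42.

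On the p53 axis, Cdkn1a, the gene of the cell cycle inhibitor p21, had a signal of 3.01 in bone marrow Venus+ and 21.1 in spleen Venus+ cells, against 3.13 in B220+ cells. It was higher in spleen Venus+ than in B220+ cells (log2 ratio 2.75 ± 0.34) and lower in bone marrow than in spleen Venus+ cells (-2.81 ± 0.58). With normexp on the spot medians Cdkn1a was 0.67 in spleen Venus+ over B220+ and -0.41 in bone marrow over spleen Venus+ cells, and with normexp on the local background 0.17 and -0.18 in these comparisons. Mdm2, the ubiquitin ligase of p53, was lower in bone marrow Venus+ cells, set against B220+ cells (-1.48 ± 0.13) and Perp was higher (1.45 ± 0.23). Mdm2 was under 2-fold with quantile normalization (-0.90), normexp on the local background (-0.57) and local background subtraction (-0.99), and Perp with normexp on the spot medians (0.46) and on the local background (0.09). Mdm4 was below detection in the bone marrow cells, at least 4.53-fold below spleen Venus+ cells. Of the 8 p53 axis genes measured on both spleen arrays, 3 were higher and 0 lower in Venus+ cells, beside 15.7% and 16.5% of all genes. In bone marrow Venus+ over B220+ cells 1 of 7 was higher and 1 lower, beside 22.4% and 30.7%.

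Among genes of survival signalling and of the turnover of Mcl1 and Bim, Tnfrsf17, the gene of BCMA, had signals of 2936 in bone marrow Venus+ and 1435 in spleen Venus+ cells and was not detected in B220+ cells. It was at least 2185-fold higher in bone marrow and at least 1068-fold higher in spleen Venus+ than in B220+ cells, and 1.03 ± 0.11 higher on the log2 scale in bone marrow than in spleen Venus+ cells. The kinase gene Pim1 had 237 in bone marrow Venus+ and 654 in spleen Venus+ cells, against 67.2 in B220+ cells (log2 ratios 1.82 ± 0.13 in bone marrow and 3.28 ± 0.14 in spleen Venus+ cells). Foxo1, a transcription factor of the FOXO family, had 36.3 in bone marrow Venus+ and 84.2 in spleen Venus+ cells, against 302 in B220+ cells (-3.06 ± 0.14 in bone marrow and -1.84 ± 0.14 in spleen Venus+ cells). Usp9x, a deubiquitinase that stabilizes Mcl1, had 3.90 in bone marrow Venus+ and 19.6 in spleen Venus+ cells, against 44.2 in B220+ cells (-3.50 ± 0.46 in bone marrow and -1.17 ± 0.15 in spleen Venus+ cells), and was lower in bone marrow than in spleen Venus+ cells (-2.33 ± 0.45). With normexp on the spot medians Usp9x was under 2-fold (-0.92 in bone marrow and -0.57 in spleen Venus+ cells, and -0.35 between them), and likewise on the local background (-0.69 in bone marrow and -0.45 in spleen Venus+ cells, and -0.24 between them), as was Pim1 in bone marrow on the local background (0.42). Tnfrsf17 between the Venus+ populations was under 2-fold with quantile normalization (0.96) and normexp on the spot medians (0.83), and Foxo1 against B220+ cells stayed past 2-fold in all 5 settings. Of 16 genes, 3 were higher and 4 lower in bone marrow Venus+ cells, beside 22.4% and 30.7% of all genes, and 4 were higher and 2 lower in spleen Venus+ cells, beside 15.7% and 16.5%.

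**Figure D4:**
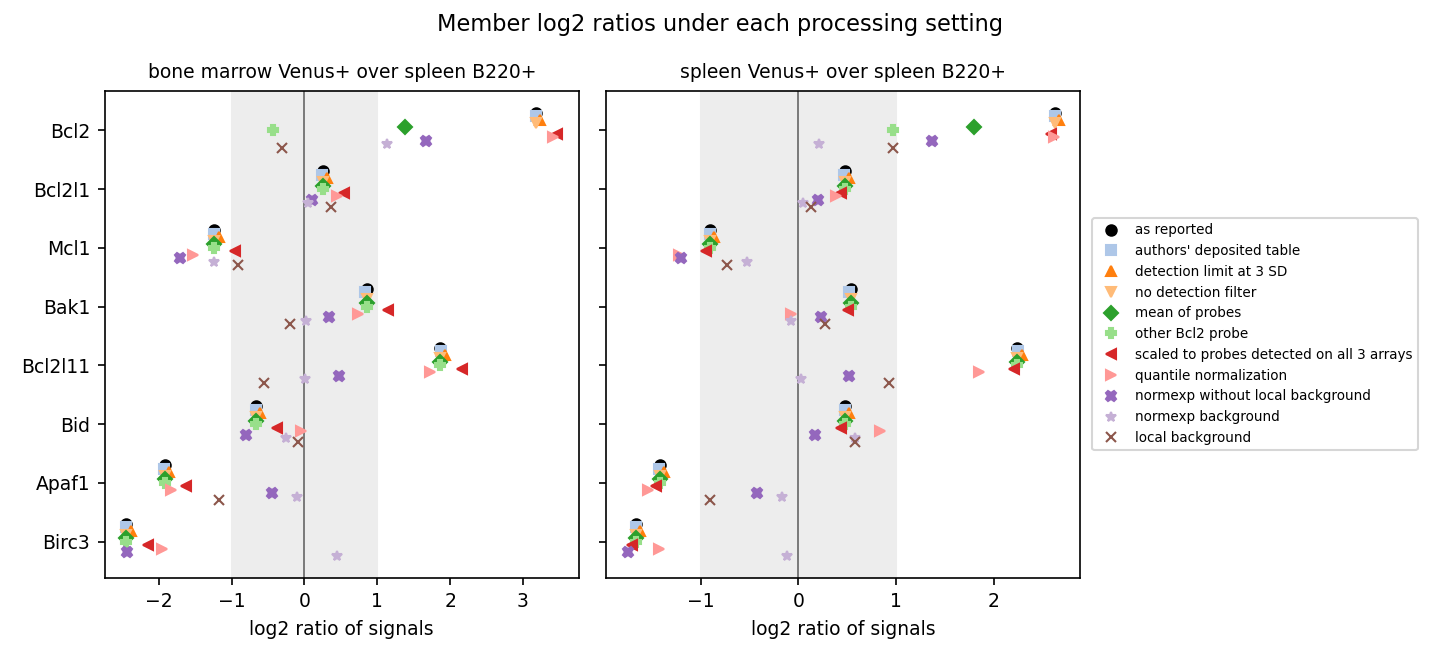
Log2 ratios of normalized signals (horizontal) of the 8 members (vertical) for bone marrow Venus+ and spleen Venus+ over B220+ cells under the reported processing and each alternative, 1 symbol a setting, with grey shading for less than 2-fold. The reported Bcl2 value of 3.18 in bone marrow Venus+ cells stands against -0.43 on the other Bcl2 probe, and Mcl1 lies left of 0 under all settings shown. With local background subtraction the Bcl2 symbol is read on that other probe.

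Several of the member calls rest on how background is removed. The local background column of the scanner files tracked the signal of its own spot, with a Spearman correlation across probes of 0.93 in bone marrow Venus+, 0.94 in spleen Venus+ and 0.95 in B220+ cells. Probes share an array and are not independent, so this is a description. For Birc3 the local background was 287 beside a spot median of 267 in spleen Venus+ cells and 1133 beside 1110 in B220+ cells, so subtracting it leaves no signal. With normexp on that column Birc3 stood at 0.44 in bone marrow Venus+ and -0.12 in spleen Venus+ over B220+ cells, and with normexp on the spot medians alone at -2.44 in bone marrow Venus+ and -1.75 in spleen Venus+ cells.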

How the data were processed

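RNA of the 3 sorted populations was amplified, labelled with Cy5 and hybridized to Toray's 3D-Gene mouse array, per the labels. The deposited scanner files hold the spot median intensity and a local background, per the file headers. The authors also deposited a table of processed intensity values, with blank-spot background subtracted and the median of detected signals set to 25, per the series' design text. The version of the extraction software is not stated.

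Values were computed here from the scanner files by that recipe. The mean of the middle 90% of 2736 blank spots was subtracted, a probe was detected above that mean plus 2 SD, and detected signals were scaled to a median of 25. Detection differed from the deposited table for 0 probes on each array, and values of 10 or more differed by at most 4.05%. That table is linear and uncentred, runs in the direction of the spot medians and has a median of 25 on each array. Faulty spots (2 in bone marrow Venus+, 1 in spleen Venus+ and 0 in B220+ cells) were left out.

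Of 23473 probes, 16631 had exactly 1 symbol and 6842 did not, and 3947 symbols were updated by RefSeq synonyms (GRCm38.p6). Where a gene had several probes, the one of highest mean log2 signal stood for it, and every probe of a member is given. This choice was made anew under each setting, and with local background subtraction it fell on the second Bcl2 probe. The lowest detected signals were 2.35, 1.74 and 1.34 in bone marrow Venus+, spleen Venus+ and B220+ cells. Into the spot error went the blank spots' SD (1.18, 0.868 and 0.670 normalized units) and the positive controls' relative SD (5.21%, 5.77% and 7.57%). Having 3 arrays limits the precision. For a gene detected on 1 array, "at least" gives the bright signal over the higher of the dim array's lowest detected signal and the dim probe's own.

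Named were all members, all BH3-only, effector and anti-apoptotic relatives, for each other role the called genes of highest and lowest ratio and those whose bound reached 2-fold, and the 2 genes nearest each member. Casp6, Casp9, Diablo, Aifm1, Tmbim6, Vdac3, Birc2 and Birc5 fall outside this rule and were named after their values were seen. So were Cd247, Fcer2a, Mcpt8, Tfrc and other cell type markers detected on all 3 arrays. Members and lists were chosen with earlier results of these data known. Alternatives were normexp (limma 3.58.1, offset 50), local background subtraction, 2 other normalizations, other detection rules, the deposited table, probe averaging and thresholds of 1.5-fold and 3-fold. The other Bcl2 probe and normexp without the local background column were chosen after seeing the data. The code was tested on simulated data with Python 3.11.15.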

Additional observations from a re-analysis of the deposited data

Results flagged for a closer look

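Bid and the second Bcl2 probe lay on opposite sides of the B220+ value in the Venus+ populations, which is why they are listed here. Bid stood at -0.67 in bone marrow Venus+ and 0.47 in spleen Venus+ over B220+ cells on the log2 scale. The second Bcl2 probe stood at -0.43 in bone marrow Venus+ and 0.97 in spleen Venus+ over B220+ cells. Each value is 1 array against the same B220+ array, and the difference was not tested.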

How the results depend on the processing

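No paired analysis was possible because each population has 1 array and the labels give no replicate numbers. Precision is limited by the 3 arrays, by the blank level for dim probes such as Bak1 and Bcl2l11, and by probe choice for Bcl2. In what follows, counts are of genes at least 2-fold apart, comparisons are named by the population set against B220+ cells, and "within plasma cells" means bone marrow over spleen Venus+ cells. With the deposited table, probe averaging, the 3 SD detection limit or no detection filter, each of the 12 counts of members and of other apoptosis genes stayed within 1.5 times its reported value. Over all settings, 96 of the recomputed counts did so and 48 did not.

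With normexp on the local background column, members higher or lower in spleen Venus+ cells numbered 0 and 0 (2 and 2 reported), in bone marrow Venus+ cells 1 and 1 (2 and 3), and 0 were lower within plasma cells (1). Other genes higher in spleen Venus+ cells numbered 3 (12), bone marrow Venus+ cells had 0 higher and 9 lower (11 and 22), and 4 were lower within plasma cells (10). With local background subtraction, members numbered 0 higher and 0 lower in spleen and 0 and 1 in bone marrow Venus+ cells. Within plasma cells 2 were lower. Bcl2 was read on its second probe in these counts, so they mix the change of background with a change of probe. Among other genes, 14 were lower in spleen (7), while 7 in bone marrow Venus+ cells (11) and 6 within plasma cells (3) were higher. With normexp on the spot medians alone, 1 member was higher in spleen and 1 in bone marrow Venus+ cells, with 0 lower within plasma cells, and 3 other genes were higher in each Venus+ population, with 0 higher and 3 lower within plasma cells. With arrays scaled to the probes detected on all 3, 0 members were lower within plasma cells, 14 other genes were lower in bone marrow Venus+ cells, and 6 were higher and 5 lower within plasma cells. That scaling moved the median of all genes from -0.24 to 0.05 in bone marrow Venus+ cells and from -0.17 to 0.16 within plasma cells, and the share of all genes called higher and lower from 22.4% and 30.7% to 28.3% and 24.1% in the first of these, and the second from 492 higher and 1720 lower genes to 1250 and 916. Quantile normalization gave 1175 higher and 1135 lower of all genes within plasma cells, 0 members lower within plasma cells, 13 other genes lower in bone marrow Venus+ cells, and 6 higher and 5 lower within plasma cells.

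At 1.5-fold, 2 members were lower within plasma cells, and other genes higher and lower numbered 21 and 23 in spleen Venus+ cells, 34 were lower in bone marrow Venus+ cells, and 7 were higher and 29 lower within plasma cells. At 3-fold, 1 member was lower in spleen Venus+ cells and 0 within plasma cells, and other genes numbered 5 and 2 in spleen, 4 and 11 in bone marrow Venus+ cells, with 4 lower within plasma cells. On the other Bcl2 probe, 1 member was higher in spleen and 1 in bone marrow Venus+ cells, and 2 were lower within plasma cells. Directions of called members turned 4 times, all in bone marrow Venus+ over B220+ cells. Birc3 stood at 0.44 with normexp on the local background column and Bcl2l11 at -0.56 with local background subtraction. Bcl2 stood at -0.31 with local background subtraction and at -0.43 in the setting with its other probe. Both of these Bcl2 values were read on the second probe, so each is a change of probe. Called genes of the wider list turned direction in 5 cases in spleen and 3 in bone marrow Venus+ cells with normexp on the local background, and in 1 and 4 with its subtraction. In spleen Venus+ cells 1 turned with normexp on the spot medians, and 1 turned within plasma cells under each setting that uses the local background. Apart from the change of probe, the cause was not tested.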
